A study of Mus musculus with 4 samples.

Results

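The clone with a high metastatic capacity, 4T1-HM, was compared with the clone with a low metastatic capacity, 4T1-LM, in the absence of drug. Both are single-cell clones of 4T1, a murine triple-negative breast cancer (TNBC) cell line. The libraries are named HM_Ctrl and LM_Ctrl, and both cultures received the solvent DMSO alone for 48 h. In the same experiment a culture of each clone received 50 μmol/L of deferasirox (DFX), an iron chelator, and these libraries are named HM_DFX and LM_DFX. The members of the comparison were genes that reached an FPKM of 1 in HM_Ctrl or LM_Ctrl, 12083 of the 49585 in the table. FPKM counts the read pairs (fragments) of a gene relative to its length and to the size of the library.

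Each condition had 1 library, so the differences have no replicate check and carry no p-values. Each group is 1 clone grown in 1 culture, so the metastatic capacity, the particular clone, its culture and its library cannot be told apart. The libraries held between 14363064 and 21883855 fragments, and the median gene had 588 fragments in HM_Ctrl and 537 in LM_Ctrl. The difference between clones is given as the log2 ratio of FPKM + 1, HM over LM, a scale that shrinks differences between low values. A gene is called higher or lower at a ratio of at least 2-fold. Intervals beside a ratio are for fragments relative to the library total, are exact (Clopper-Pearson, 95%) and cover counting error only. The drug-treated pair shares no library with the untreated pair, but it differs in treatment and is therefore shown beside it and not as a replicate.

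Metastasis of a carcinoma cell depends on leaving the epithelium, passing basement membrane, surviving in the circulation and growing at a distant site. Basement membrane is a sheet of laminins and collagens to which basal epithelial cells attach through integrins. Secreted cytokines, matrix proteins and proteases shape the surroundings of the tumour cell, and surface receptors and transcription factors set how it responds to them. In the mammary gland, luminal cells carry the keratins Krt8 and Krt18, and basal cells carry Krt5 and Krt14.

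Both untreated libraries held markers of epithelial cells and some, but not all, of the mesenchymal markers listed. The FPKM of Krt8 was 593 in HM_Ctrl and 963 in LM_Ctrl, that of Krt18 was 773 and 933, and that of the epithelial cadherin Cdh1 was 92.5 and 96.9. Other luminal markers were Gata3 at 33.2 and 30.1, Foxa1 at 2.23 and 1.02, and Elf5 at 0 in all 4 libraries. The intermediate filament Vim, a mesenchymal marker, was at 937 and 1251. Other mesenchymal markers were Fn1 at 461 and 271, Twist1 at 31.6 and 21.7, and Zeb2 at 3.90 and 2.37. Cdh2 was at 0 in all 4 libraries, and Zeb1 was at 0.0118 and 0.138. Of the receptors that define triple-negative tumours, Pgr was at 0 in all 4 libraries, Esr1 was at 0.529 and 0.465, and Erbb2 was at 12.5 and 11.8. The basal keratin Krt5 was also at 0 in all 4 libraries. The summed FPKM of 4 endothelial markers was 0.0664 in HM_Ctrl and 0.0102 in LM_Ctrl, and 2 of the 4 were at 0 in both. The 6 leukocyte markers summed to 13.1 and 12.3, of which the lysosomal protein Cd68 gave 12.9 and 12.3, while Cd3e and Adgre1 were at 0. The 4 erythroid and fat markers summed to 0.0735 and 0.235. The 6 fibroblast markers summed to 3.51 and 3.86, mostly from Pdgfra at 3.18 and 2.77.

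Of the 12083 genes, 462 (3.82%) were called higher in HM_Ctrl and 399 (3.3%) were called lower, 861 (7.13%) in all, and the median log2 ratio was 0.01. In a bulk library, fewer cells with a transcript and less of it per cell cannot be told apart. Genes for secreted and surface proteins were called at a larger share than all genes. Among the 606 genes whose annotation in the table places the product in the extracellular space or region, 69 (11.4%) were higher and 76 (12.5%) were lower. For 165 genes of the extracellular matrix the counts were 19 and 23, and for 337 genes of the cell surface they were 31 and 29. The 304 lysosomal genes were divided unevenly, with 36 (11.8%) higher and 6 (1.97%) lower. The 594 genes with transcription factor activity were called at a smaller share than all genes, 14 (2.36%) higher and 13 (2.19%) lower. All genes include noncoding ones. Of the 10448 protein-coding genes, 364 were higher and 267 were lower, smaller shares than those of all genes. These classes were drawn after the first values had been seen and are given as a description.

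**Figure D1:**
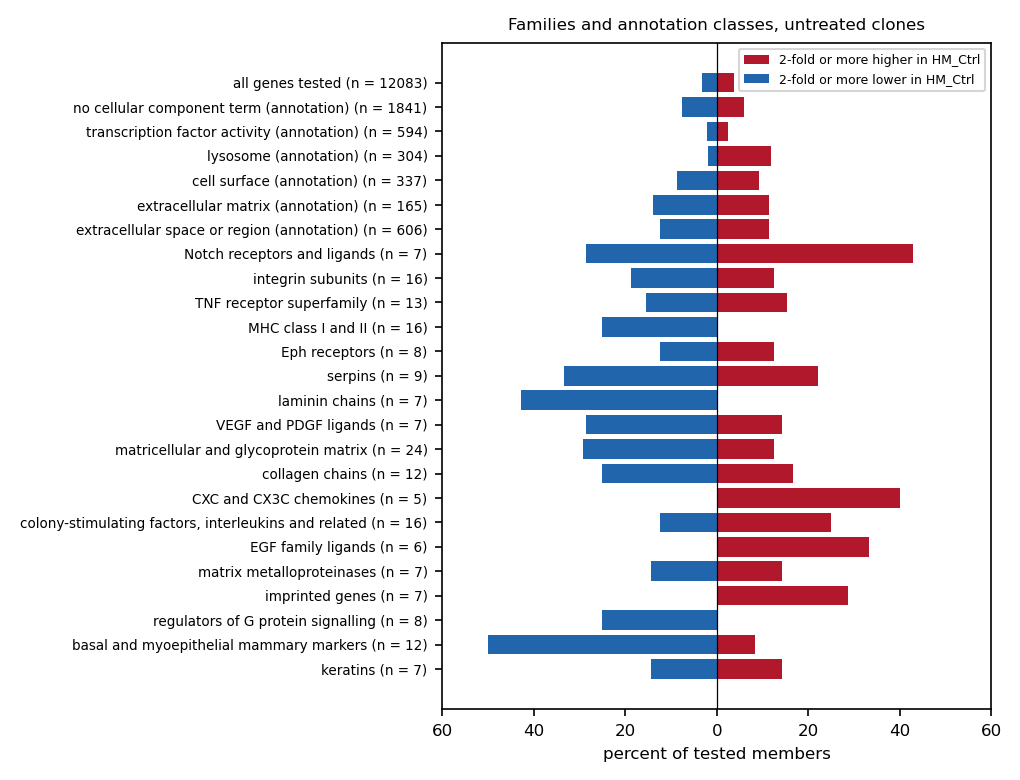
Percent of tested members called 2-fold or more higher (red, to the right) or lower (blue, to the left) in HM_Ctrl than in LM_Ctrl, for annotation classes and for families with at least 5 tested genes and at least 25% called; n is the number tested. The called laminin chains and the 4 called members of the MHC list were all lower in HM_Ctrl. These 4 were Cd74, the invariant chain, and H2-Q5, H2-Q6 and H2-Q7, which share sequence with other genes. Cytokines, integrins and Notch genes were called in both directions.

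Genes of the basement membrane and its attachment were called in both directions. Lama3 and Lamb3 encode chains of the laminin of the epithelial basement membrane. The FPKM of Lamb3 was 9.42 in HM_Ctrl and 42.5 in LM_Ctrl, and 7.07 in HM_DFX and 61.2 in LM_DFX. That of Lama3 was 0.728 and 5.00 without drug and 0.901 and 8.0 with DFX. For each of these chains both LM libraries lay above both HM libraries. In mm10, Lamb3 lies on chromosome 1 from 193207699 to 193343878 and Lama3 on chromosome 18 from 12333819 to 12583013. The ratios of HM_Ctrl to LM_Ctrl were 0.221 (0.207 to 0.237) for Lamb3 and 0.145 (0.12 to 0.175) for Lama3. Of the other laminin chains, Lama5, Lamb1 and Lamb2 were not called and had log2 ratios of 0.53, 0.78 and 0.61. Of the type IV collagens, which form the network of basement membrane, Col4a5 was called higher, at 15.5 in HM_Ctrl and 6.83 in LM_Ctrl. With DFX Col4a5 was at 6.48 and 3.33. Col4a1 and Col4a2 were not called, with log2 ratios of 0.45 and 0.56 without drug.

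Of other genes of this attachment, Col7a1 and Itga2 were lower, and Itga6 and Itgb4 were not called. Col7a1, the collagen of the anchoring fibrils that hold basement membrane to the stroma, was at 19.6 in HM_Ctrl and 65.9 in LM_Ctrl, a ratio of 0.298 (0.286 to 0.31), and with DFX at 8.33 and 22.2. Itga2, the alpha subunit of a collagen receptor, was at 9.11 and 25.3, and with DFX at 5.14 and 27.5. Both LM libraries were above both HM libraries for these 2 genes. The subunits Itga6 and Itgb4, which form the laminin receptor of hemidesmosomes, were close, at 26.0 and 31.2 and at 33.7 and 33.0.

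Of 12 tested genes on the list of basal and myoepithelial markers, 6 were lower in HM_Ctrl and 1 was higher, with a median log2 ratio of −0.80 against 0.01 for all genes. Krt14 (chromosome 11, 100203162 to 100207548) was at 2.48 in HM_Ctrl and 54.3 in LM_Ctrl, and at 1.90 and 10.4 with DFX. Sfn, Lamb3, Sparc and Mylk were also lower. Serpinb5 (maspin), a serpin of mammary epithelium, was also lower, at 0.869 against 4.35, and at 0.760 against 3.67 with DFX. The gene called higher was Cav1, a coat protein of caveolae, at 13.8 against 6.0. Trp63, the transcription factor that marks the basal layer, was at 0.00712 and 0.0152, and Krt17, Acta2 and Myh11 were at most 0.143 in both. For Krt14, 28.2% of the 31-base words of its transcripts also occur in another gene, for Sfn 26.9% and for Krt8 36.0%, so fragments could be divided between copies.

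The luminal list did not move as a group, with 1 gene higher and 2 lower of 13 tested and a median log2 ratio of −0.05. The gene that was higher was the luminal keratin Krt19, at 101 in HM_Ctrl and 46.4 in LM_Ctrl. With DFX the order of Krt19 was turned, at 87.9 and 103, so its levels in the 2 clones overlapped over the 4 libraries. Cldn4, a tight junction protein, was at 18.0 and 43.2 without drug and 11.3 and 43.2 with DFX, lower in HM in both pairs. Other junction genes that were lower were Tjp3, a tight junction scaffold, at 0.375 and 2.75, and Dsc2, a desmosomal cadherin, at 0 and 1.19. The list of epithelial junction markers did not move as a group. It had 18 genes tested, with 1 higher, 2 lower, 15 not called and a median log2 ratio of −0.09. None of the 4 tested factors of the epithelial-mesenchymal transition list was called, and Twist1 had a log2 ratio of 0.52. Fn1, fibronectin, was at 461 and 271, a log2 ratio of 0.76 that missed the threshold.

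**Figure D2:**
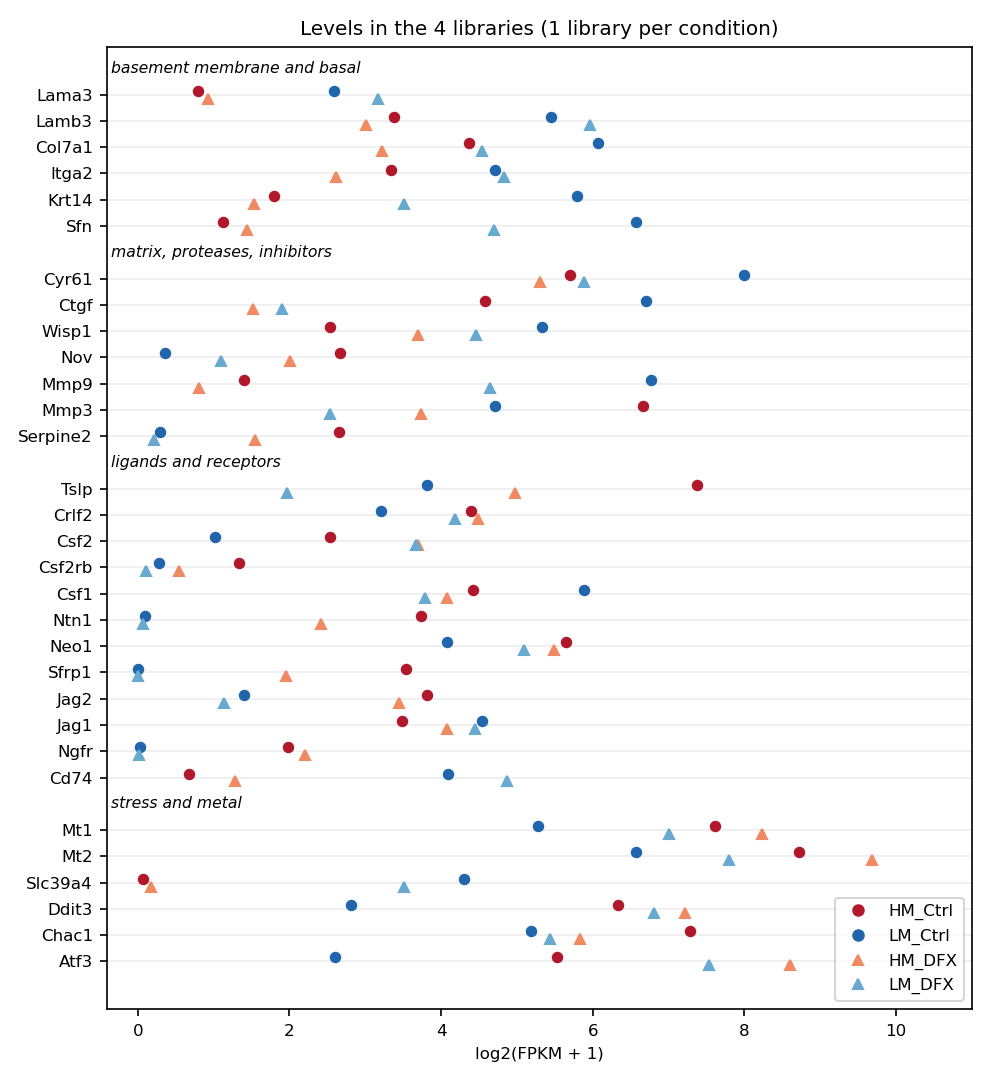
Level of selected genes, as log2(FPKM + 1), in HM_Ctrl (red circles), LM_Ctrl (blue circles), HM_DFX (orange triangles) and LM_DFX (light blue triangles), 1 library each. Lama3, Lamb3, Krt14, Sfn, Mmp9, Cd74 and Slc39a4 were higher in both LM libraries, and Tslp, Ntn1, Sfrp1, Jag2, Ngfr and Mt2 in both HM libraries, whereas the pairs lay closer together with DFX for Csf2, Cyr61, Ddit3 and Chac1.

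The matricellular genes, whose secreted products signal from the matrix, and other glycoproteins of the matrix were called in both directions. Of 24 tested, 7 were lower in HM_Ctrl and 3 were higher, and the median log2 ratio was −0.58. The CCN family was split. Cyr61 was at 50.9 in HM_Ctrl and 255 in LM_Ctrl, Ctgf at 22.9 and 103, and Wisp1 at 4.78 and 39.3, ratios of 0.20 (0.19 to 0.211), 0.223 (0.208 to 0.238) and 0.122 (0.110 to 0.134). Nov and Wisp2, of the same family, were higher, at 5.35 against 0.288 and at 1.58 against 0.0330. With DFX the 5 genes kept the sign of their difference, but none reached 2-fold, and Ctgf was at only 1.87 in HM_DFX and 2.75 in LM_DFX. Cyr61 and Ctgf are widely used as targets of the transcription factors YAP and TAZ.

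Thbs1 (thrombospondin), Sparc and Postn (periostin) were also lower. Thbs1 was at 109 in HM_Ctrl and 241 in LM_Ctrl, Sparc at 49.8 and 121, and Postn at 0.144 and 2.09. Sparc was lower with DFX too, at 12.8 and 38.8. Igfbp7, a secreted protein that binds insulin-like growth factors, had FPKM of 41.7 and 106 without drug and 12.5 and 57.2 with DFX. Podnl1, a leucine-rich proteoglycan-like protein of the matrix, was at 3.26 and 41.8 without drug and at 0.824 and 9.24 with DFX, so that both LM libraries were above both HM libraries. Of 12 collagen chains tested, 2 were higher, Col4a5 and the cartilage collagen Col2a1, and 3 were lower, Col7a1, Col6a1 and Col12a1. Col2a1 was at 1.79 and 0.0953, Col6a1 at 3.05 and 10.4, and Col12a1 at 1.33 and 4.34. The genes Ctgf, Wisp2, Thbs1, Sparc, Postn, Igfbp7, Col4a5, Col12a1 and some of those named in later paragraphs were selected after their values were seen.

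Some proteases and protease inhibitors were called, in both directions, while most members of the protease families tested were not. Of 10 ADAMTS proteases tested, 1 was higher, 1 was lower and 8 were not called. Of 11 genes of the plasminogen system and kallikreins, 1 was lower and 10 were not called. The share called there, 9.09%, was near the 7.13% of all genes. Of 7 tested matrix metalloproteinases, Mmp9, a gelatinase, was lower, Mmp3 (stromelysin) was higher and 5 were not called. Mmp3 (chromosome 9, 7445822 to 7455975) was at 100.3 in HM_Ctrl and 25.3 in LM_Ctrl, a ratio of 3.97 (3.66 to 4.31), and at 12.3 and 4.80 with DFX. Mmp9 was lower in HM in both pairs, with FPKM of 24.0 in LM_DFX and 0.748 in HM_DFX. Timp1, an inhibitor of these enzymes, was at 49.6 and 116 without drug and 21.3 and 49.3 with DFX. Ctsw, a papain-like cysteine protease known from cytotoxic lymphocytes, was at 2.52 and 109 without drug and 1.24 and 27.9 with DFX, while the leukocyte markers stood as given above.

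Among the serpins, a family of protease inhibitors, Serpine2 (protease nexin-1, chromosome 1 from 79794197 to 79861180) was at 5.30 in HM_Ctrl and 0.222 in LM_Ctrl, a ratio of 23.8 (16.4 to 35.8). With DFX it was at 1.92 and 0.165, so it kept its direction by 2-fold or more. Of 9 serpins tested, 2 were higher and 3 were lower.

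Of 16 tested colony-stimulating factors, interleukins and related cytokines, 4 were higher in HM_Ctrl (Tslp, Il33, Csf2 and Csf3) and 2 were lower (Csf1 and Il24). Tslp, an epithelial cytokine that acts on dendritic cells and lymphocytes, was at 30.4 in HM_DFX and 2.90 in LM_DFX, a ratio of 10.5 (8.17 to 13.6). That ratio stood beside 12.7 (11.1 to 14.6) without drug. Csf2, the granulocyte-macrophage factor, was at 4.78 and 1.03 without drug, and at 11.9 and 11.7 with DFX, where the clones were close. Il33, an alarmin, was at 2.57 and 0.132 without drug and at 0.868 and 0.792 with DFX. Csf1, the macrophage factor, was at 20.3 in HM_Ctrl and 58.1 in LM_Ctrl, and at 15.9 and 12.8 with DFX, where its order was turned. Il24 was at 5.21 and 12.3 without drug and 4.37 and 12.7 with DFX. Only Tslp of the 4 higher and Il24 of the 2 lower passed 2-fold in the same direction in the drug-treated pair.

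Of 22 interleukin and cytokine receptors tested, 2 were higher in HM_Ctrl and 3 were lower, with a median log2 ratio of −0.16. The 2 that were higher were Crlf2 and Csf2rb. Crlf2, the specific subunit of the Tslp receptor, was at 20.1 in HM_Ctrl and 8.21 in LM_Ctrl, a ratio of 2.44 (2.07 to 2.90). Csf2rb, the shared subunit of the Csf2 receptor, was at 1.52 and 0.213. Il7r, the other subunit of the Tslp receptor, was under an FPKM of 1 in both libraries and was not tested. Ntn1 (netrin-1), a guidance cue, was at 12.3 in HM_Ctrl, 0.0709 in LM_Ctrl, 4.31 in HM_DFX and 0.0510 in LM_DFX. Neo1, a netrin receptor, was at 49.2 and 15.8 without drug and at 44.0 and 33.0 with DFX. Unc5b, another netrin receptor, was at 31.2 and 49.0, a log2 ratio of −0.63. The 3 that were lower were Il1r1, Il13ra1 and Il15ra, subunits of receptors for other interleukins. The receptors named here were singled out after their values were seen.

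Among growth factors, Sfrp1, a secreted antagonist of Wnt ligands, had 773 fragments in HM_Ctrl and 0 in LM_Ctrl. It was at least 242-fold higher in HM_Ctrl when the 0 is set to the 3 fragments that a count of 0 allows. Of 5 Wnt ligands tested, Wnt10a was lower, at 4.89 and 16.6. Of 7 VEGF and PDGF ligands, Pgf (placental growth factor) was at 0.151 and 3.42 without drug and at 0.220 and 12.4 with DFX. Pdgfb was at 20.7 and 64.2, and Vegfc was at 14.7 and 6.83, just inside the threshold, while Slc8b1 at 13.6 and 6.33 was just outside it. Vegfa, the main angiogenic factor, was at 31.9 and 30.9. Flt1, a receptor of Pgf and Vegfa, was higher in HM_Ctrl, at 6.77 against 2.32. Of 6 ligands of the EGF receptor family, Btc (betacellulin) was at 4.21 and 0.830 and Nrg2 at 2.19 and 0.330, whereas Areg was at 44.2 and 41.0. For Btc the order was turned with DFX, at 3.57 and 6.09. The chemokines Cxcl5 and Cxcl10 were higher, at 17.1 against 6.55 and at 3.39 against 1.13.

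Of the 7 tested Notch receptors and ligands, 3 were higher and 2 were lower. Jag2 (chromosome 12, 112908590 to 112929495), a transmembrane Notch ligand, was at 13.1 in HM_Ctrl and 1.65 in LM_Ctrl, a ratio of 7.96 (6.5 to 9.84), and at 9.89 and 1.19 with DFX. Dll4 was at 8.60 and 3.14 and Dll1 at 4.77 and 1.85. Jag1 was lower, at 10.2 against 22.3, and so was Dlk2, a noncanonical relative of the ligands, at 3.31 against 10.6. The receptors were not called, Notch1 at 1.69 and 3.99 and Notch2 at 10.3 and 11.4. For Dll1 the order was turned with DFX, at 8.45 and 13.5, while Jag2 and Dll4 stayed higher in HM_DFX.

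Of 13 tested members of the TNF receptor superfamily, 2 were higher and 2 were lower. Ngfr, the p75 neurotrophin receptor, had 170 fragments in HM_Ctrl and 1 in LM_Ctrl, and 179 and 1 with DFX. Tnfrsf19 had 193 and 1 fragments without drug and 178 and 9 with DFX. Cd40, the receptor for the T cell ligand CD154, had 0 fragments in HM_Ctrl and 125 in LM_Ctrl, at least 44.4-fold lower in HM_Ctrl when the 0 is set to 3 fragments. The death receptor Fas was at 1.92 and 5.51 without drug and at 4.99 and 4.06 with DFX. The first 3 of these genes kept their direction by 2-fold or more with DFX.

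Of 16 tested genes on the list of MHC genes and their partner chains, 4 were lower in HM_Ctrl, none was higher and 12 were not called. The median log2 ratio was −0.34. Cd74 (chromosome 18, 60803848 to 60812646), the invariant chain of MHC class II, was at 0.593 in HM_Ctrl and 16 in LM_Ctrl, and at 1.43 and 28.1 with DFX, ratios of 0.0369 (0.02 to 0.0628) and 0.0510 (0.0339 to 0.0737). The other 3 that were lower were H2-Q5, H2-Q6 and H2-Q7, at 1.80 and 4.99, 5.18 and 12.3, and 0.616 and 2.41. Between 39.2% and 57.9% of the 31-base words of these 3 genes are shared with other genes, and their separate values are uncertain. The classical genes H2-K1 and H2-D1 were at 61.8 and 88.5 and at 122.9 and 177, with 22.8% and 26.9% of their words shared, and B2m, the common light chain, was at 372 and 371. H2-DMa, of the class II peptide-loading complex, was at 4.22 and 1.70, a log2 ratio of 0.95 that missed the threshold. Outside the MHC list, Cd1d1, which presents lipid antigens and shares 24.8% of its words, was higher in HM_Ctrl, at 2.51 against 0.495. Ly6e, a surface protein anchored by glycosylphosphatidylinositol, was at 0.978 and 15.1 without drug and at 0.773 and 30.2 with DFX. Cd276 (B7-H3), a checkpoint ligand, was at 17.9 and 37.0.

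Further surface genes were called in both directions. Adgrg3, an adhesion G protein-coupled receptor, had 27 fragments in HM_Ctrl and 1089 in LM_Ctrl, and 1 and 458 with DFX. Itga8, an integrin subunit of mesenchymal and smooth muscle cells, was at 8.32 and 0.0863 without drug and at 2.15 and 0.0868 with DFX. The leukocyte and platelet subunits Itgb2 and Itgb3 were lower in HM_Ctrl, at 8.47 against 19.8 and at 4.52 against 12.4. Tspan13, a tetraspanin, was at 5.53 and 0.642 without drug and at 17.0 and 1.07 with DFX, the larger difference being in the drug-treated pair. Siglec15, a sialic acid-binding lectin, was at 14.8 and 0.825 without drug and at 2.65 and 0.632 with DFX. Gprc5b was at 5.44 and 0.535. Among 8 Eph receptors, Ephb4 was at 61.1 and 23.5 and Epha1 at 10.5 and 28.4, and the ligand Efnb1 was lower, at 5.10 against 15.3. With DFX Ephb4 and Efnb1 were under 2-fold, with log2 ratios of 0.61 and −0.53, while the other genes of this paragraph passed it in the same direction.

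Few transcription factors differed by 2-fold, 14 (2.36%) higher and 13 (2.19%) lower of 594, against 3.82% and 3.3% of all genes. Against protein-coding genes alone, 364 higher and 267 lower of 10448, the gap was smaller, and on the lower side the shares were close. None of the Hox (7 tested), Ets (16 tested) or GATA (4 tested) genes was called. At the 7.13% of all genes, families this small would hold few called members or none. Atf3, a stress-induced repressor, was at 45.0 in HM_Ctrl and 5.05 in LM_Ctrl. With DFX it was at 385 and 184, so both drug-treated libraries lay above both untreated ones. Klf9 was at 35.7 and 8.75 without drug and at 57.1 and 17.8 with DFX, a ratio of 4.08 (3.68 to 4.53) without drug. Klf4 and Klf3 were higher as well, so that 3 of 16 Kruppel-like and Sp factors were called and none was lower. Bhlhe41, a repressor of the circadian clock, was at 9.03 and 2.56 without drug and at 8.43 and 10.5 with DFX, where its order was turned. Id2 and Id4, which block basic helix-loop-helix factors, were at 21.1 and 7.56 and at 3.85 and 0.383. Foxq1 was at 4.52 and 0.455, with 65.9% of its 31-base words shared with another gene, and Tfap2a, an AP-2 factor, was at 34.1 and 15.3.

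On the LM side, Sox12 was at 2.74 in HM_Ctrl and 9.74 in LM_Ctrl, and at 0.860 and 3.63 with DFX. Nfkbie, an inhibitor of NF-kappaB, was at 7.57 and 22.3, and Irf5, an interferon regulatory factor, was at 0.740 and 3.26. Sox12 and Irf5 passed 2-fold in the same direction with DFX, and Nfkbie did not, with a log2 ratio of −0.81. Nes (nestin), an intermediate filament of progenitor cells, was at 9.34 and 35.8, and at 3.56 and 13.3 with DFX.

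The metallothionein genes Mt1 and Mt2 were higher in HM_Ctrl. Metallothioneins are small cysteine-rich proteins that bind zinc and copper and are induced by these metals through metal response elements. Mt1 was at 194 in HM_Ctrl, 37.9 in LM_Ctrl, 299 in HM_DFX and 128 in LM_DFX. Mt2 was at 421, 94.4, 823 and 222 in the same order, and 58.1% of its 31-base words are shared with another gene. Both HM libraries were above both LM libraries for each gene, with ratios of 5.13 (4.74 to 5.55) and 4.46 (4.15 to 4.8) without drug. Slc39a4, a zinc importer of the plasma membrane, had 2 fragments in HM_Ctrl and 657 in LM_Ctrl, and 4 and 505 with DFX. Slc30a1, a zinc exporter that metals also induce, was at 5.35 and 3.03, a log2 ratio of 0.66.

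Among stress-induced genes, 4 that were singled out after their values were seen passed 2-fold in HM_Ctrl without drug and stayed under it with DFX. Ddit3 (CHOP) was at 79.8 in HM_Ctrl, 6.05 in LM_Ctrl, 148 in HM_DFX and 111 in LM_DFX. Chac1, which degrades glutathione, was at 154, 35.3, 55.8 and 42.1 in that order. Ppp1r15a, the stress-induced partner of a phosphatase of eIF2-alpha, was at 20.9 and 3.85 without drug and at 170 and 104 with DFX, and Zfand2a at 85.3 and 12.9 and at 176 and 113. The log2 ratios without drug were 3.52 for Ddit3, 2.10 for Chac1, 2.18 for Ppp1r15a and 2.63 for Zfand2a. With DFX they were 0.41, 0.40, 0.70 and 0.63. LM_Ctrl was the lowest library for each of the 4 genes. The transcription factors Atf4, Atf5 and Atf6, which act in the integrated and the endoplasmic reticulum stress responses, were not called without drug, with log2 ratios of 0.45, 0.51 and 0.10. Atf3, described above, passed 2-fold with DFX too, at 1.06 on the log2 scale. Sqstm1, an autophagy receptor, was at 428 and 136 and Hmox1, the inducible heme oxygenase, was at 34.2 and 9.91.

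The promoters of 4 metallothionein and stress genes that were called higher in HM_Ctrl are shown with the motifs known from such genes. Each sequence is the 250 bases before the transcription start in the RefSeq annotation of GRCm38.p6, read 5′ to 3′ on the strand of the gene. Capitals mark TGCNCNC on either strand, a loose form of the metal response element core, in Mt1 (chr8:94178839-94179088, plus strand) and Mt2 (chr8:94172368-94172617, plus strand). In Chac1 (chr2:119350992-119351241, plus strand) and Atf3 (chr1:191183334-191183583, minus strand) they mark TTGCATCA, a core of the element bound by C/EBP and ATF factors, searched on either strand.
Mt1: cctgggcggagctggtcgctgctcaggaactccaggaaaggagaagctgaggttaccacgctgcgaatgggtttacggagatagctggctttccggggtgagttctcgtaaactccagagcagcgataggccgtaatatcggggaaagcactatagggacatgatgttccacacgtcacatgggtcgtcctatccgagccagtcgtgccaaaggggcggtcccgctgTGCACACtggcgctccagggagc
Mt2: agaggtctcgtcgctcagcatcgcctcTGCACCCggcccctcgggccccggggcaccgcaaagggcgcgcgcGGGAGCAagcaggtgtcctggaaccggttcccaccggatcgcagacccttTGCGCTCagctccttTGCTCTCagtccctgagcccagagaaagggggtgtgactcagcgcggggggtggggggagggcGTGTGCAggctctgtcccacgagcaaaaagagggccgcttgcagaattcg
Chac1: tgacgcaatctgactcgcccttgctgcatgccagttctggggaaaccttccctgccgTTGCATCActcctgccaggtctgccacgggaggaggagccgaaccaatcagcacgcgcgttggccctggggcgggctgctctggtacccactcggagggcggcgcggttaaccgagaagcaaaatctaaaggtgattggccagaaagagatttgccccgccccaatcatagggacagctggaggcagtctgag
Atf3: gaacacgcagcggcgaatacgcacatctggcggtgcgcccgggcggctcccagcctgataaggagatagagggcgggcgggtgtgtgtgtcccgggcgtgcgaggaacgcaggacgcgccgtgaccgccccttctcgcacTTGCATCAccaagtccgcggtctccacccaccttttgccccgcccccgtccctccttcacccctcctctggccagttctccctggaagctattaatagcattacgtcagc
The TGCNCNC pattern, where N is any base, occurred 1 time in the Mt1 window and 5 times in the Mt2 window, with no overlap between matches. A match need not be a metal response element, and binding was not tested. Bases outside a window, on either side of it, were not searched. These counts therefore describe the window before 1 annotated start and not the whole promoter. Of 32817 promoter windows of this length, 44.4% held the TGCNCNC pattern at least once and 0.344% held it at least 5 times. It also occurred 2 times each in the windows of Ddit3 and Jag2 and 1 time in that of Atf3. Each window of Lamb3, which was lower in HM_Ctrl, held it 1 time. Those of Chac1, Ppp1r15a, Mmp3 and Sfn did not hold it. The C/EBP-ATF core occurred 1 time each in the Chac1 and Atf3 windows and in 0.792% of all windows. It was not found in the 250-base windows of Ddit3 and Ppp1r15a, and whether it lies further from their starts was not tested. It occurred 1 time in the window of Sfn, which was lower in HM_Ctrl.

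Of 170 solute carriers tested, 12 were higher, 2 were lower and 156 were not called, with a median log2 ratio of 0.15. The share called, 8.24%, was near the 7.13% of all genes. Slco4a1, an organic anion transporter, was at 7.86 in HM_Ctrl and 0.265 in LM_Ctrl, and at 1.94 and 0.219 with DFX. Slc5a3, the sodium-dependent inositol transporter, was at 24.4 and 5.69, Slc6a8, the creatine transporter, at 39.6 and 10.3, and the glucose transporter Slc2a1 at 107 and 40.3. With DFX the last was at 207 and 231, with the order turned. Other genes with large differences were Gpnmb, a glycoprotein of lysosomes and melanosomes that was still higher with DFX at 10.4 against 1.6, Olfm1, a secreted olfactomedin at 42.7 and 5.76, and Ube2ql1 at 25.4 and 2.04. Rgs16, which ends G protein signals, was at 0.149 in HM_DFX and 11.6 in LM_DFX, and Rgs14 of the same family was also lower without drug, at 0.408 against 1.89.

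Some genes were detected in 1 clone and nearly absent from the other in both pairs. With at least 30 fragments in both libraries of one clone and at most 3 in both of the other, 11 protein-coding genes (0.105% of 10448) marked the HM clone and 8 (0.0766%) marked the LM clone. This rule used all 4 libraries and was added after values were seen. The HM genes were Sfrp1, Ogdhl, Ngfr, Dennd2a, Tbcel, Ephx1, Hpse, Slc16a10, Snrpn, Xlr and Dusp22. Slc16a10, a transporter of aromatic amino acids, had 215 and 309 fragments in the HM libraries and 0 in both LM libraries. Hpse, the heparanase that cleaves heparan sulfate in the matrix, had 110 and 67 fragments in HM_Ctrl and HM_DFX, and 0 and 2 in LM_Ctrl and LM_DFX. Snrpn, an imprinted gene with 34.5% of its words shared, had 52 and 44 fragments against 0 and 0. For Xlr 24.4% of the words are shared, and its values are uncertain.

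The LM genes were Moxd1, Mall, Fam111a, Ldhb, Gpm6b, Tmem98, Ly6a and Dsc2. Fam111a, a protease linked to DNA replication, had 662 and 615 fragments in LM_Ctrl and LM_DFX, and 1 and 2 in HM_Ctrl and HM_DFX. Ldhb, the heart-type subunit of lactate dehydrogenase, had 205 and 167 fragments in the LM libraries and 1 and 0 in the HM libraries, while Ldha was at 557 in HM_Ctrl and 510 in LM_Ctrl. The desmosomal cadherin Dsc2 had 99 and 192 fragments against 0 and 0. Moxd1, a relative of dopamine beta-hydroxylase, had 752 and 333 fragments against 3 and 1, and Mall 422 and 592 against 1 and 2. For Ldhb 33.0% and for Ly6a 31.9% of the words are shared with another gene.

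Of the 462 genes higher in HM_Ctrl, 101 (21.9%) were also at least 2-fold higher in HM_DFX than in LM_DFX, and 339 had the same sign. Of the 399 lower genes, 167 (41.9%) were at least 2-fold lower with DFX and 306 had the same sign. In the drug-treated pair, 2.3% of the 12083 genes were called higher and 4.82% lower, 7.13% in all. These 101 and 167 genes were 36.3% and 28.6% of the genes called higher and lower there. A further 17 of the higher and 14 of the lower genes were called in the opposite direction with DFX. Of these, 7 of the 17 and 13 of the 14 were miRNA, snoRNA or snRNA genes, and 10 and 11 were at 0 in at least 1 library. The 8 protein-coding genes among the 17 included the neuronal pentraxin Nptx1, at 53.1 and 18.4 without drug and 5.94 and 20.8 with it, and Egln3, a prolyl hydroxylase of HIF, at 85.9 and 29.8 and at 32.8 and 71.7. Across genes, which are not independent, the 2 sets of log2 ratios had a Pearson correlation of 0.47.

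**Figure D3:**
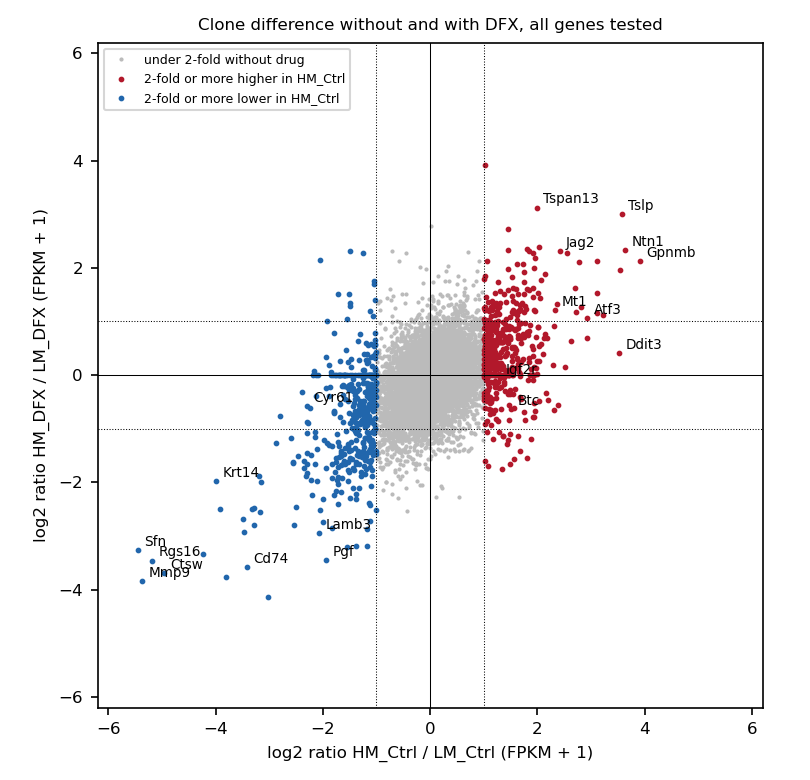
Log2 ratio of FPKM + 1 between the clones without drug (x axis) and with DFX (y axis) for the 12083 genes tested; dotted lines mark 2-fold. Red points (higher in HM_Ctrl) and blue points (lower) lie mostly on the same side of 0 in both pairs, and Sfn, Mmp9, Rgs16 and Ctsw are at the lower left, Tslp, Ntn1 and Gpnmb at the upper right, and Ddit3 and Igf2r near 0 on the y axis.

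Along some chromosomes, more genes lay on one side of 0 than on the other. The median log2 ratio of a chromosome ranged, among the autosomes, from −0.19 on chromosome 16 (354 genes, 71.2% below 0) to 0.18 on chromosome 12 (432 genes, 36.6% below 0), and with DFX it was −0.16 and 0.06 on the same chromosomes. Medians were also taken in 11577 overlapping windows of 25 neighbouring expressed genes, with 1st and 99th percentiles of −0.35 and 0.34. The windows named here were picked by these same ratios. Their counts of genes below or above 0 follow in part from that choice. The lowest median was −0.50 on chromosome 2 from 19371440 to 24975098 of mm10. There 23 of the 25 genes were below 0 or at it in the untreated pair, and the median was −0.35 with DFX. Members included Apbb1ip at 10.9 and 22.0, Pdss1 at 4.43 and 9.05, and Zmynd19 at 12.7 and 26.0 in HM_Ctrl and LM_Ctrl. The highest median was 0.52 on chromosome 8 from 12614277 to 19784856, where 23 of 25 genes were above 0, and it was 0.22 with DFX. This stretch held Lamp1, a major lysosomal membrane protein, at 347 and 191, Atp11a, a phospholipid flippase, at 29.9 and 18.2, and Coprs at 8.57 and 3.47. On chromosome 12, the window from 76347782 to 80436601 had a median of 0.46 without drug and 0.02 with it. Cyr61 lay in the second lowest window, on chromosome 3 from 142560026 to 146521429, with a median of −0.46 without drug and −0.28 with DFX. No DNA copy number was measured in these data, and its part in these stretches was not tested.

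**Figure D4:**
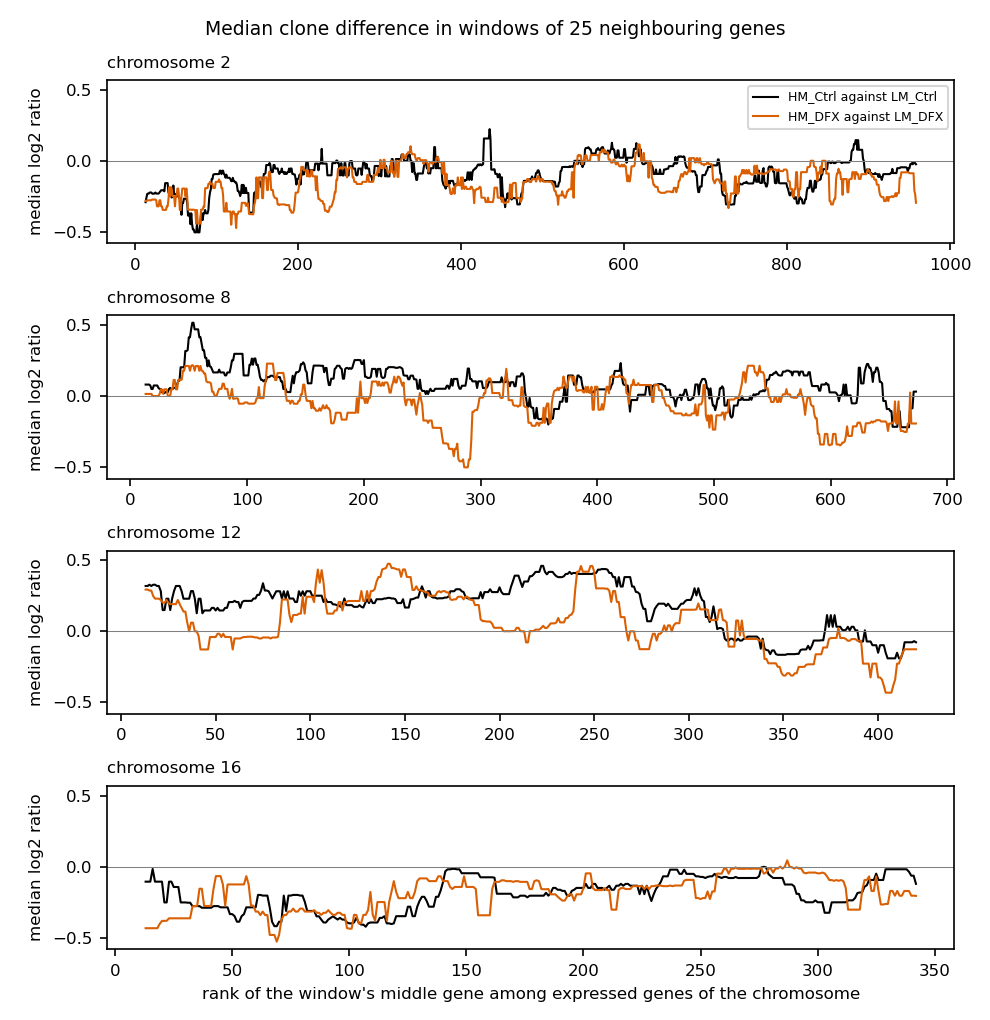
Median log2 ratio of FPKM + 1 between the clones in windows of 25 neighbouring expressed genes on chromosomes 2, 8, 12 and 16, without drug (black) and with DFX (orange), against the rank of the middle gene along the chromosome. Chromosome 16 lay mostly below 0 and the first part of chromosome 12 mostly above 0, and the highest peak without drug was on chromosome 8, at 0.52.

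Of 4 noncoding genes named by the size of their difference, 3 rested on few fragments or shared sequence. The pseudogene Gm2260 had 190 fragments in HM_Ctrl and 10 in LM_Ctrl, and all of its 31-base words occur in another gene. Mir7666 had 8 and 1 fragments, and the small nucleolar RNA gene Gm23969 had 1 and 9. Ptgs2os2, a long noncoding RNA gene beside Ptgs2, had 27 and 263 fragments, and 11 and 118 with DFX, lower in HM in both pairs.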

How the data were processed

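Total RNA of the 4T1-HM and 4T1-LM cultures was isolated and, according to the study's methods, made into directional libraries after poly(A) selection. The methods also mention ribosomal RNA depletion. The authors deposited FPKM per gene, without a filter on low values and without pooling. The submitters' processing notes name FastQC, Trimmomatic, HISAT2, featureCounts and the build mm10, and the versions and the use of strand in counting are not given in the sources used here. Without strand, overlapping genes on opposite strands cannot be told apart.

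Samples were grouped by their titles. The log2 ratio of FPKM + 1 was computed from the deposited values, so the pseudocount was 1, for genes that reached an FPKM of 1 in either untreated library, and 2-fold was the threshold. Fragments were recovered from FPKM, with exon lengths of GENCODE M21 for 9680 genes and a length solved from the values for 2385. Values of 99.9% of the genes tested came out whole within 0.02 (0.01 for solved lengths). M21 coordinates were matched by 99.3% of tested genes on chromosomes 1 to 9, 11 and X, and by 52.0% on chromosomes 10 and 12 to 19. The lengths of the 2385 genes were chosen to give whole values, so wholeness is no check of them. The smallest length that fits was taken, so fragments of such a gene may be too few, which leaves ratios as they are and widens intervals. PCR copies are not independent molecules, and intervals and floors cover counting error only.

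Families were defined by gene symbol, and annotation classes by the terms in the deposited table. The members and lists were chosen with earlier results of these data known. Named genes were the 4 highest and the 4 lowest called genes of each class (secreted, surface, transcription factor, lineage) with 5 FPKM or more in the higher library, the 5 highest and lowest outside these classes at 10, up to 3 called members of each family with 5 or more tested and 25% or more called, the 2 highest and lowest noncoding genes at 5, and lineage markers. Shared sequence is the percent of the 31-base words of a gene that occur in another M21 gene, and above 20% a gene was treated as uncertain. The alternatives were a pseudocount of 0.1, other filters, scalings and thresholds, protein-coding genes alone, windows of 50 genes and the DFX pair. Calling and total solving were tested on simulated data. Python 3.11.15, pandas 2.3.3, numpy 2.4.6, scipy 1.17.1 and matplotlib 3.10.9 were used. Some genes that the rule for named genes selects are not reported here.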

Additional observations from a re-analysis of the deposited data

Results flagged for a closer look

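For some genes called without drug, the sign of the clone difference was opposite in the drug-treated pair, and the difference between the pairs was not tested, since each condition had 1 library. The log2 ratios with DFX were −0.28 for Bhlhe41, −0.23 for Krt19, −0.29 for Cxcl10, −0.63 for Btc, −0.052 for Igf2r and −0.33 for Mir7666, against 1.49, 1.10, 1.05, 1.51, 1.30 and 2.17 without drug. Igf2r, an imprinted receptor that sorts lysosomal enzymes, was at 37.7 in HM_Ctrl, 14.8 in LM_Ctrl, 28.6 in HM_DFX and 29.7 in LM_DFX, and the clones were close with DFX. Cxcl10 was at 77.6 in HM_DFX and 95.3 in LM_DFX, both far above the untreated libraries. Mir7666 rested on 1 to 8 fragments in a library and all of its sequence is shared.

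Family medians that turned sign were, with DFX, −0.29 for CXC and CX3C chemokines, −0.047 for cytokines, −0.68 for EGF family ligands, 0.14 for matrix metalloproteinases, −0.11 for the TNF receptor superfamily and −0.052 for imprinted genes. Without drug these medians were 0.50, 0.26, 0.08, −0.09, 0.09 and 0.46. These families held 5 to 16 tested genes each. The shift of all tested genes was 0.01 without drug and −0.06 with DFX.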

How the results depend on the processing

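The 462 genes higher and 399 lower in HM_Ctrl became 756 and 627 with a pseudocount of 0.1, 1276 and 1086 at 1.5-fold, and 42 and 55 at 4-fold, and stayed within 1.5 times with the other filters, both scalings and protein-coding genes alone (364 to 491 higher, 267 to 401 lower). The share of the higher genes that passed the same threshold with DFX moved from 21.9% to 28.1% at 1.5-fold. The signs of all 18 family medians computed were kept with a pseudocount of 0.1 and with scaling by the median ratio. In the DFX pair the log2 ratio was reversed for Bhlhe41 (−0.28), Krt19 (−0.23), Cxcl10 (−0.29), Btc (−0.63), Igf2r (−0.052) and Mir7666 (−0.33), and the cause was not tested. The lowest and highest chromosome windows had medians of −0.38 and 0.43 with 50 genes. No paired analysis was possible because each condition has 1 library, so that HM_Ctrl and LM_Ctrl share no numbered replicates, and leaving out a library leaves no comparison. A fit of clone and treatment to all 4 libraries was not run, since it would take the drug-treated pair as a replicate. Depth limits genes under about 10 fragments, whose intervals are wide.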

Other observations

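Outside the groups above, several inflammatory genes separated the untreated clones. C3, the central complement component, was at 6.36 in HM_Ctrl and 23.4 in LM_Ctrl, and at 4.83 and 21.6 with DFX. Casp1, the caspase of inflammasomes, was at 0.718 and 5.48, and at 0.326 and 2.17 with DFX. Both LM libraries were above both HM libraries for C3. Lcn2, which binds bacterial siderophores, was higher in HM_Ctrl, at 3.28 against 0.412, and Tlr4, the receptor for lipopolysaccharide, was at 7.65 and 3.03. Lgr6, a receptor for R-spondins, was at 18.4 and 6.0 without drug and at 2.12 and 3.01 with DFX. Mertk, a receptor for apoptotic cells, had 94 fragments in HM_Ctrl and 4 in LM_Ctrl. The genes of this paragraph were chosen after their values were seen.

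Of 24 genes of the mitochondrial genome, 2 (8.33%) were called higher in HM_Ctrl and none lower, against 3.82% and 3.3% of all genes. Their median log2 ratio was 0.33 without drug and 0.26 with DFX.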
